A study of Pan troglodytes with 8 samples.

Results

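The G1 phase of the cell cycle is controlled by a small set of cyclins, kinases and inhibitors, and 10 of these genes were followed through 4 cell populations sorted from chimpanzee cerebral organoids. They are the D-type cyclins CCND1, CCND2 and CCND3, their kinase partners CDK4 and CDK6, the E-type cyclins CCNE1 and CCNE2, and the inhibitors CDKN2C, CDKN1B and CDKN1C. They were chosen by symbol, and all 10 were among the 60583 named rows of the chimpanzee genome (panTro6) count table and among the 18137 rows of the human genome (hg38) table made from the same libraries.

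The organoids came from SandraA, a chimpanzee induced pluripotent stem cell line, and were collected at week 8 of culture, give or take 3 days. The populations were apical radial glia (aRG), stem cells in contact with the ventricle, basal radial glia (bRG), stem cells without that contact, basal intermediate progenitor cells (bIP), which are transit-amplifying, and BCL11B+ neurons (N). Each population had 2 libraries, each made from the RNA of 10000 cells, and none was treated. All come from 1 line. Nothing in the labels tells if the pair of libraries of a population stems from different organoid batches, and the p-values therefore cover a spread between libraries that may be technical. Of the sort, the sources used here give no marker other than BCL11B.

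As background, D-type cyclins respond to growth signals, bind CDK4 or CDK6 and phosphorylate the retinoblastoma protein, which frees E2F transcription factors. E2F then raises the E-type cyclins, which activate CDK2 for entry into S phase. CDKN2C (p18) belongs to the INK4 family and blocks CDK4 and CDK6, whereas CDKN1B (p27) and CDKN1C (p57) belong to the Cip/Kip family and act on CDK2 complexes. In the developing cortex, the length of G1 and the exit from the cycle accompany the change from stem cell to neuron.

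The summed markers of aRG, bIP and N followed their labels. None of the radial glia, intermediate progenitor, neuronal or mitosis sums was highest in bRG. Levels are CPM, the counts of a gene relative to its library total, after scaling by TMM factors (trimmed mean of M values). The summed level of 7 radial glia genes was 2952 and 2976 CPM in aRG, 2044 and 1766 in bRG, 452 and 435 in bIP, and 145 and 62.7 in N. That of 7 neuronal genes was 331 and 653 CPM in aRG, 773 and 1449 in bRG, 2429 and 2826 in bIP, and 5001 and 4567 in N. Of these 7 only RBFOX3 had a higher mean in bIP than in N, at 178 and 223 CPM against 154 and 121. The bRG libraries were thus below aRG in radial glia genes and above it in neuronal genes, and HOPX, a gene known from basal radial glia, was at 33.5 and 28.2 CPM in bRG against 41.9 and 49.7 in aRG. The part of this in the bRG levels below was not tested. The 5 intermediate progenitor genes summed to 2197 and 2576 CPM in bIP and to at most 495 in any other library. In bIP BCL11B was at 286 and 348 CPM, against 488 and 590 in N. The part of neuronal RNA in the bIP levels below was not tested. The 10 mitosis genes summed to 4725 and 3968 CPM in aRG, 1868 and 1769 in bRG, 351 and 525 in bIP, and 129 and 94.8 in N. Library totals ranged from 24649971 to 33245892 counts on panTro6. In aRG the 6 choroid plexus genes also stood apart in sum, at 946 and 3287 CPM against 33.8 to 76.2 in the other libraries. The sum of 7 mesenchyme and vessel genes was 359 and 1732 against 21.7 to 311. Most of the first sum was TTR (819 and 3092 CPM in aRG), and COL1A1 (941) and COL3A1 (554) led the second in aRG replicate 2. PDGFRB (124 and 147 CPM in aRG, 133 and 122 in bRG) and PECAM1 (mean 1.81 in aRG, 3.39 in N) did not stand apart. The other genes of both lists had their highest mean in aRG. No gene of these last 2 lists was at 0 in all libraries. The part of such cells in the aRG levels below was not tested.

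The D-type cyclins CCND1 and CCND2 could not be read from the chimpanzee table. CCND1 had 0 counts there in all 8 libraries, which allows at most 0.0884 to 0.129 CPM per library in that row, while the human table held 2943 counts of it. CCND2 had 145 counts against 36221, a ratio of 0.00400. The other 8 genes had 1.78 to 2.41 times as many counts on the chimpanzee as on the human genome, where the median was 1.82 over the 10552 symbols that both tables hold and that reached 10 CPM on average on the human one. Of those 10552 symbols, 286 had 0 counts in all libraries of the chimpanzee table and 389 had a ratio under 0.05, so CCND1 and CCND2 belong to a small class. Values of CCND1 and CCND2 below come from the human table, whose CPM are on a scale of their own, and those of the other 8 come from the chimpanzee table.

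**Figure D1:**
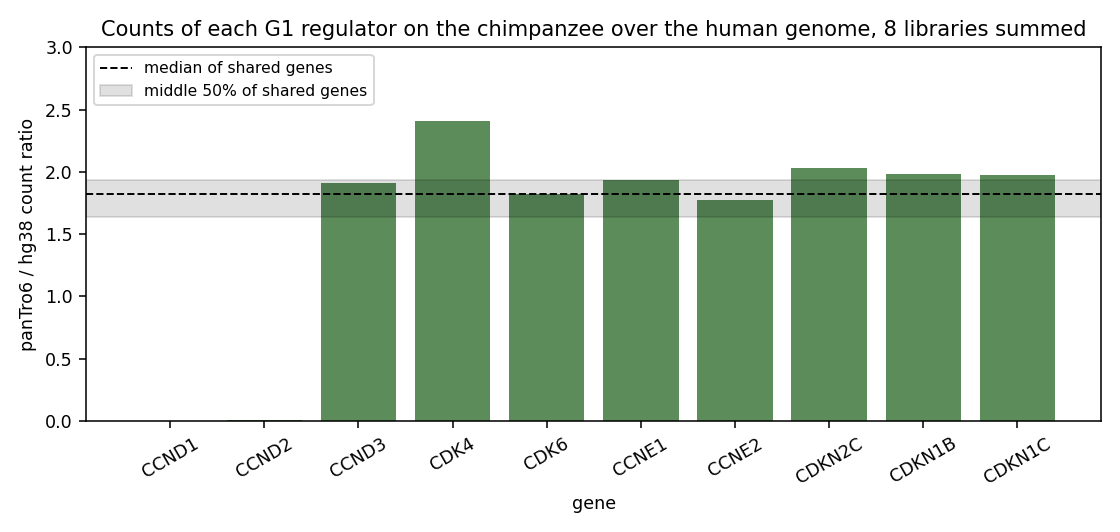
Bars give the count of each gene on the chimpanzee genome divided by that on the human genome, summed over 8 libraries, with the median (dashed line) and the middle 50% (grey band) of 10552 shared genes. CCND1 (0) and CCND2 (0.00400) are at the floor, and the other 8 genes lie between 1.78 and 2.41.

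Across the populations, the member that changed most was CDKN2C, the INK4 inhibitor of CDK4 and CDK6. It was at 25.3 and 20.0 CPM in the 2 aRG libraries (replicates 1 and 2), 8.24 and 9.92 in bRG, 3.07 and 8.38 in bIP, and 0.541 and 0.216 in N. Both aRG libraries were above every other library and both N libraries below, while bRG and bIP overlapped. The N values rest on 14 and 5 counts, both above the floor of 3 counts.

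CDKN2C fell (adjusted p under 0.05) in N against each of the other populations by edgeR's quasi-likelihood test. The log2 fold change was −5.87 against aRG (SE 0.69, adjusted p = 0.000186), from a mean of 22.6 ± 3.75 CPM to 0.379 ± 0.230 (SD, n = 2). Against bRG it was −4.55 (SE 0.66, adjusted p = 0.00162) and against bIP −3.89 (SE 0.65, adjusted p = 0.00775). A fit of bIP and N alone did not call the fall between them (adjusted p = 0.0845). Within replicate numbers 1 and 2 the N to aRG difference in log2(CPM + 1) was −4.09 and −4.11.

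The steps before the neuron were smaller and did not pass in the fit reported, which has no replicate block. In bRG against aRG the log2 fold change of CDKN2C was −1.32 (SE 0.54, unadjusted p = 0.0320, adjusted p = 1). In bIP against aRG it was −1.98 (SE 0.56, adjusted p = 0.0915), which DESeq2 called (adjusted p = 0.00553). Without N replicate 1 or N replicate 2 it was −1.99. With the replicate number as a block it was −2.03 and was called (adjusted p = 0.0431). EdgeR with no low-count filter and no block gave −2.01 and called it as well (adjusted p = 0.00713). Over all genes DESeq2 passed 2303, the block 2122 and no filter 2159, against 1002 in the fit reported. DESeq2 size factors, a minimum of 5 CPM, robust estimation, halved counts and a fit of bIP and aRG alone made no call. On the human table edgeR did not call it (adjusted p = 0.0876) and DESeq2 did (0.0106). Between bIP and bRG the log2 fold change was −0.67 (SE 0.54, adjusted p = 0.88). The summed mitosis genes given above fell in the same order of populations, and in bulk RNA fewer cells of a kind and less RNA per cell cannot be told apart. The part of either in the CDKN2C levels was not tested.

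CCND1, a D-type cyclin induced by growth signals, was at 73.1 and 35.0 CPM in aRG, 42.8 and 19.0 in bRG, 15.1 and 12.1 in bIP, and 14.5 and 5.11 in N on the human genome. All 4 radial glia libraries were above all 4 libraries of bIP and N, while aRG overlapped bRG and bIP overlapped N. Its log2 fold change in N against aRG was −2.46 (SE 0.57, adjusted p = 0.0127), with −2.26 and −2.56 within replicate numbers 1 and 2. Leaving out aRG replicate 1 (−1.85, adjusted p = 0.0909) or N replicate 2 (−1.89, adjusted p = 0.0749) ended this call. In bIP against aRG the value was −1.99 (SE 0.56), with an adjusted p of 0.0625 from edgeR and 0.00246 from DESeq2, and in N against bRG −1.65 (SE 0.56), with 0.0852 from edgeR and 0.0153 from DESeq2. Between the neighbours bIP and N it was −0.47 (SE 0.56, adjusted p = 0.707).

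CCND2, the D-type cyclin of neural stem cells whose mRNA is carried into the basal process of radial glia, was at 540 and 412 CPM in aRG, 480 and 336 in bRG, 305 and 323 in bIP, and 163 and 101 in N on the human genome. The aRG and bRG libraries overlapped, both bIP libraries were below them, and both N libraries were lowest. CCND2 fell in N against aRG (log2 fold change −1.85, SE 0.30, adjusted p = 0.00154), against bRG (−1.63, SE 0.30, adjusted p = 0.00548) and against bIP (−1.25, SE 0.29, adjusted p = 0.0342). The last of these was lost without bIP replicate 1 (adjusted p = 0.104), bIP replicate 2 (0.174) or N replicate 2 (0.204). In bIP against aRG the value was −0.60 (SE 0.29, adjusted p = 0.283). The comparisons with aRG share its libraries, so they are not independent of each other.

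CCND3, the third D-type cyclin, showed no such order. It was at 18.6 and 31.6 CPM in aRG, 25.8 and 22.2 in bRG, 29.2 and 11.4 in bIP, and 26.1 and 31.2 in N. The aRG libraries spanned those of bRG, the bIP libraries spanned those of bRG as well, and only N lay wholly above bRG. In N against aRG its log2 fold change was 0.19 (SE 0.43, adjusted p = 0.865).

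**Figure D2:**
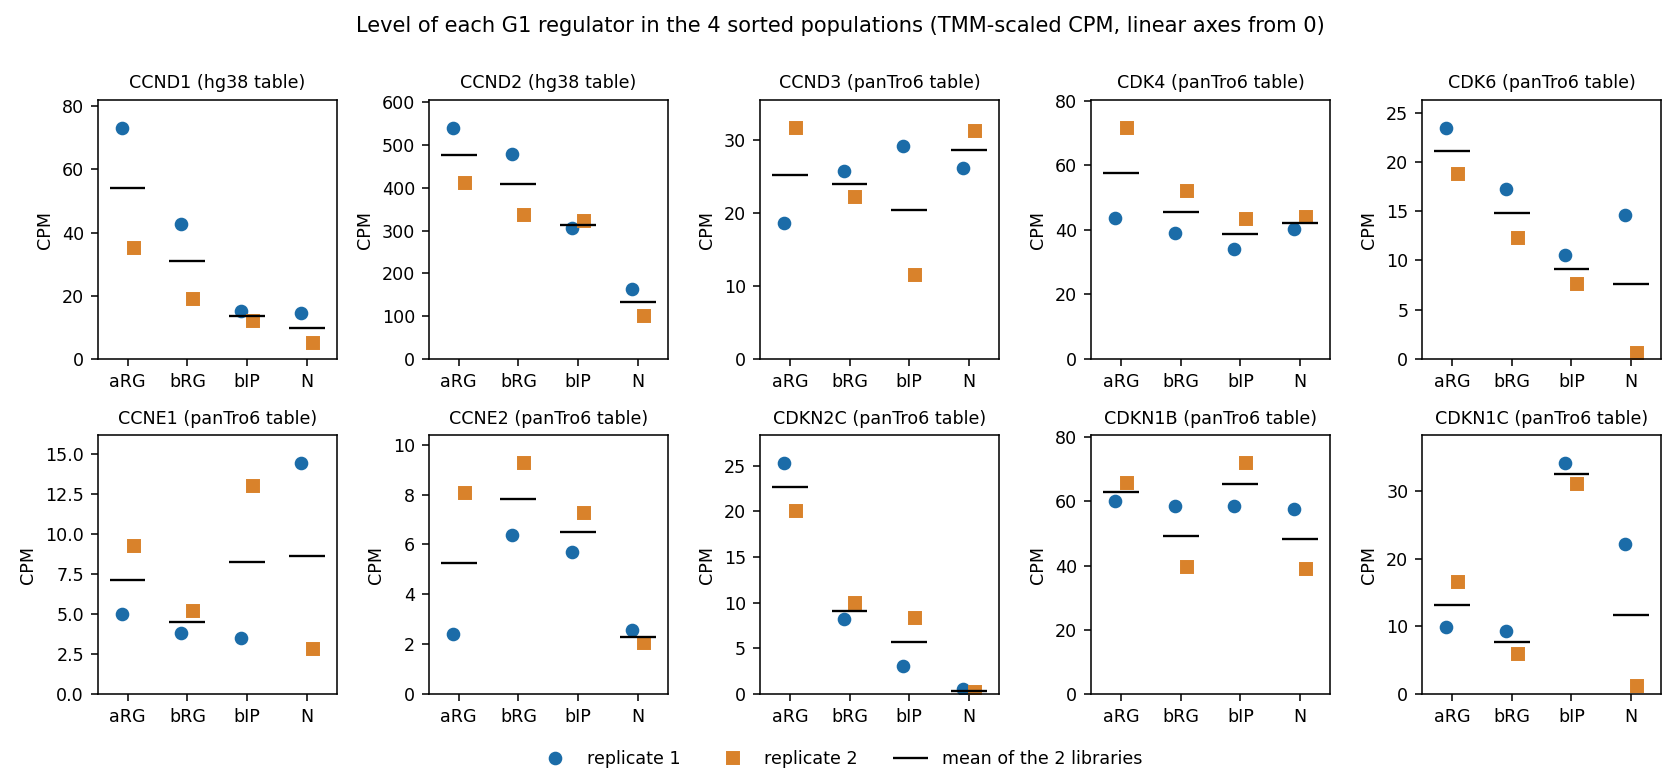
Each panel gives TMM-scaled CPM of a gene in aRG, bRG, bIP and N on a linear axis from 0, with circles for replicate 1, squares for replicate 2 and a line at their mean. CDKN2C, CCND1 and CCND2 descend toward N (0.541 and 0.216 CPM for CDKN2C), CDKN1C is highest in bIP (34.1 and 31.0), and CDK6 and CDKN1C are far apart between the N libraries.

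The kinases differed less. CDK4 was at 43.5 and 71.6 CPM in aRG, 39.1 and 52.0 in bRG, 34.0 and 43.3 in bIP, and 40.3 and 43.8 in N. Apart from aRG and bIP, which touched without overlapping, the ranges of the populations overlapped. Its log2 fold change in N against aRG was −0.45 (SE 0.31, adjusted p = 0.455). The CDK4 locus overlaps TSPAN31 and MARCHF9 in the RefSeq annotation of NHGRI_mPanTro3-v2.0, a different chimpanzee assembly, and reads of overlapping genes cannot be told apart here.

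CDK6, the other partner of D-type cyclins, was at 23.4 and 18.8 CPM in aRG, 17.2 and 12.3 in bRG, 10.5 and 7.63 in bIP, and 14.6 and 0.604 in N. The first 3 populations followed each other without overlap, while N replicate 1 lay within the bRG range and N replicate 2 below every other library. In bIP against aRG the log2 fold change was −1.22 (SE 0.87, adjusted p = 0.649) and in N against aRG −1.47 (SE 0.88, adjusted p = 0.372). Without N replicate 1 the latter was −5.12 (adjusted p = 0.000260), so the value in neurons depends on which N library is used.

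Among the E-type cyclins, CCNE1 was at 5.03 and 9.29 CPM in aRG, 3.83 and 5.20 in bRG, 3.53 and 13.0 in bIP, and 14.5 and 2.81 in N. The bIP and N libraries each spanned both radial glia populations. CCNE2 was at 2.40 and 8.08 CPM in aRG, 6.39 and 9.26 in bRG, 5.71 and 7.28 in bIP, and 2.55 and 2.03 in N. Both N libraries were below those of bRG and bIP, though not below both of aRG. CCNE2 was 2.83-fold lower in N than in bIP (SE 0.63 on the log2 scale, unadjusted p = 0.0352, adjusted p = 0.284). Against bRG the log2 fold change was −1.77 (SE 0.64, unadjusted p = 0.0165, adjusted p = 0.148, DESeq2 adjusted p = 0.0402). The CCNE2 locus overlaps INTS8 and NDUFAF6, and CCND3 and CDK6 overlap uncharacterised loci in the same annotation.

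Among the Cip/Kip inhibitors, CDKN1B was at 60.0 and 65.6 CPM in aRG, 58.7 and 39.7 in bRG, 58.6 and 71.9 in bIP, and 57.5 and 39.1 in N. In each population at least 1 library was between 57.5 and 60.0 CPM, and the SE of its log2 fold changes was about 0.30. In N against bIP the value was −0.43 (SE 0.30, adjusted p = 0.547).

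CDKN1C, the imprinted inhibitor p57, was highest in intermediate progenitors, at 34.1 and 31.0 CPM. It was at 9.91 and 16.5 in aRG, 9.34 and 5.99 in bRG, and 22.2 and 1.17 in N, so both bIP libraries were above every other library. In bIP against bRG the log2 fold change was 2.09 (SE 0.86, unadjusted p = 0.0325, adjusted p = 0.458). EdgeR called the value when only bIP and bRG were fitted (adjusted p = 0.0447) and with no low-count filter (adjusted p = 0.000305). DESeq2 did not call it (adjusted p = 0.443), nor did edgeR or DESeq2 on the human table (0.280 and 0.342). It was also not called with the replicate block, DESeq2 size factors, robust estimation, halved counts or a minimum of 5 CPM. Without N replicate 1 or N replicate 2 it was 2.08. Against aRG the value was 1.30 (SE 0.84, adjusted p = 0.593). In N against bIP it was −1.48 (SE 0.85, adjusted p = 0.448), and −4.80 without N replicate 1 (adjusted p = 0.00114).

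The 2 neuron libraries differed in the same direction for CDK6 and CDKN1C, 24.1-fold and 19.0-fold higher in replicate 1, and 5.16-fold for CCNE1. The human table gave 27.3-fold, 18.4-fold and 4.56-fold. Of the 13055 genes that averaged 5 CPM or more in N, 25 (0.191%) differed by over 10-fold between these libraries and 220 (1.69%) by over 4-fold. In the other populations the ratio of no member exceeded 3.68. Summed radial glia genes were at 145 CPM in N replicate 1 and 62.7 in N replicate 2, and intermediate progenitor genes at 452 and 251 CPM. Most of the latter was NEUROG2 (281 and 184 CPM), while NEUROG1 had 0 counts in both N libraries. The part of such cells in the gap was not tested.

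**Figure D3:**
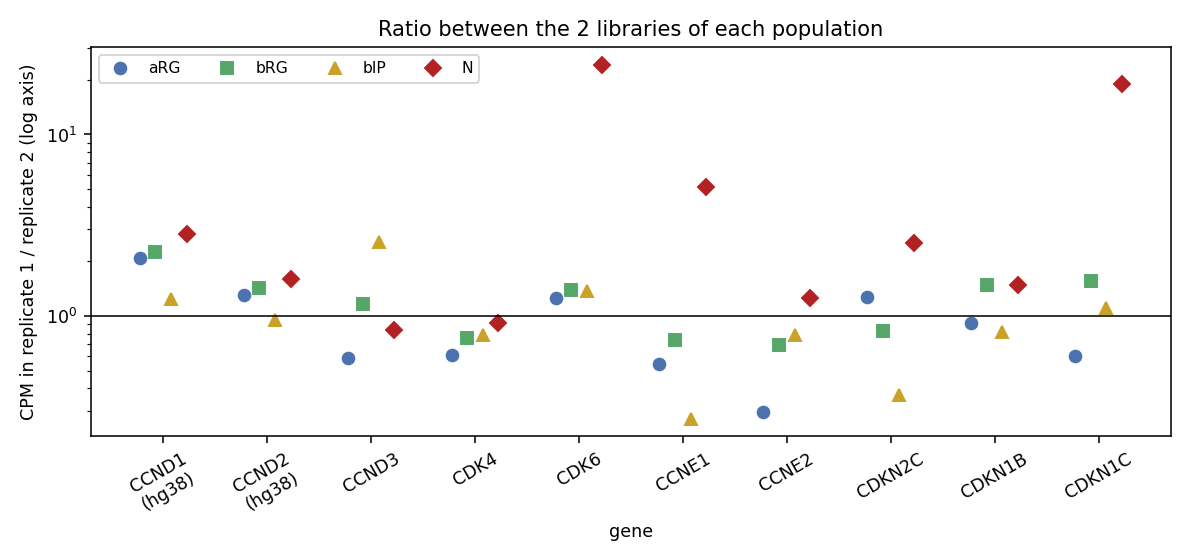
Points give CPM in replicate 1 divided by CPM in replicate 2 on a log axis for each gene and population, with a line at 1. In N, CDK6 (24.1) and CDKN1C (19.0) lie far from 1, followed by CCNE1 (5.16), and CCND1 is above 1 in all 4 populations.

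Some ratios held one direction in all populations. CCND1 and CDK6 were higher in replicate 1 in 4 of 4 populations and CDK4 in replicate 2 in 4 of 4. The share of all genes that hold one direction was not counted, so this does not set these members apart. The share of counts from MALAT1, a nuclear RNA, was also higher in replicate 1 of each population, over a range of 3.61% to 8.57%, and its relation to these genes was not tested.

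By edgeR 9 members were tested on the chimpanzee genome, since CCND1 had no counts there, and 1 of the 9 was CCND2 on its few counts. In N against aRG 1 of 9 passed, CDKN2C, where 9.67% of all 35382 tested genes did. In N against bRG it was again 1 of 9 (6.01% of all genes), and in N against bIP 1 of 9 (2.54%). In bIP against aRG 0 of 9 passed (2.83%), with 1 at an unadjusted p under 0.05 and 1 by DESeq2. In bIP against bRG 0 of 9 passed (1.03%), with 1 at an unadjusted p under 0.05 and 0 by DESeq2. DESeq2 called 1 in N against aRG (background 17.5%), 1 in N against bIP (8.37%) and 2 in N against bRG (14%). Its background was 10% in bIP against aRG and 5.81% in bIP against bRG. These DESeq2 shares are of the genes it gave an adjusted p, from 20290 to 29894 by comparison. DESeq2 gave CCND2 none in bIP against aRG or in bIP against bRG. With 9 members, these counts do not set them apart from the background. On the human table all 10 were tested, and CCND1, CCND2 and CDKN2C passed in N against aRG (3 of 10, where 19.2% of 16353 genes did). CCND2 and CDKN2C passed against bRG (2 of 10, 12.2%) and against bIP (2 of 10, 5.74%), and 0 of 10 in bIP against aRG (7.28%) and against bRG (2.96%). On the human table DESeq2 called 2 in bIP against aRG (CCND1 and CDKN2C) and 4 in N against bRG (CCND1, CCND2, CCNE2 and CDKN2C). It called 3 in N against aRG, 2 in N against bIP and 0 in bIP against bRG. Its share over all genes of that table was not counted. The median log2 fold change in N against aRG was −0.45 over the 9 members and −0.08 over all genes on the chimpanzee table, and −0.86 and −0.02 on the human one.

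The contrast of basal with apical radial glia is the one the study's title points to. There 0 of 9 members passed by edgeR, where 0.00283% of all genes did, with 1 (CDKN2C) at an unadjusted p under 0.05. DESeq2 called 0, where 0.446% of the 26464 genes it gave an adjusted p passed. On the human table it was 0 of 10 (0.00612% of all genes). The log2 fold changes for bRG minus aRG were −0.34 for CDK4 (SE 0.31), −0.52 for CDK6 (SE 0.86) and −0.07 for CCND3 (SE 0.43). They were −0.67 for CCNE1 (SE 0.77) and 0.58 for CCNE2 (SE 0.61). For the Cip/Kip inhibitors they were −0.35 for CDKN1B (SE 0.30) and −0.79 for CDKN1C (SE 0.84), and on the human table −0.81 for CCND1 (SE 0.54) and −0.22 for CCND2 (SE 0.29). The adjusted p was 1 for each gene on either table. With SE of this size, the values do not show that the populations are alike.

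**Figure D4:**
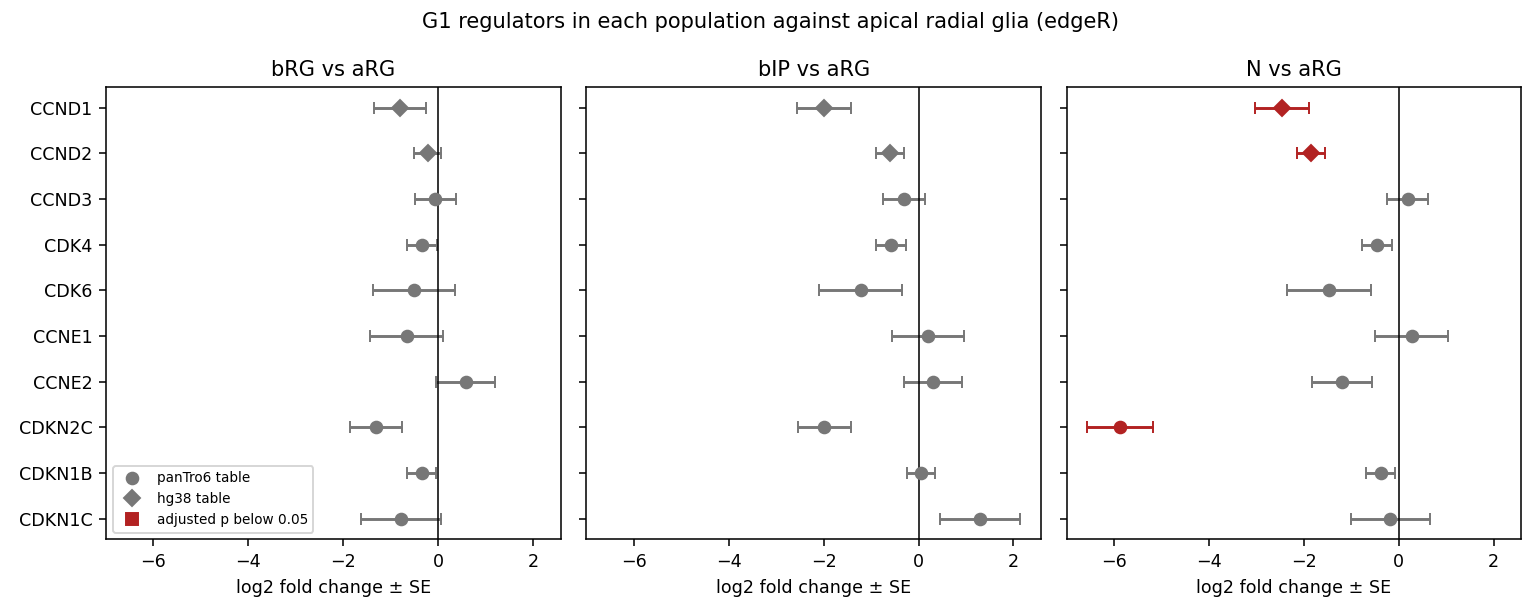
Points are edgeR log2 fold changes with their SE for bRG, bIP and N against aRG, circles from the chimpanzee table and diamonds from the human one, red where the adjusted p is below 0.05. Red marks are seen in N only, for CDKN2C (−5.87), CCND1 (−2.46) and CCND2 (−1.85), and the panels share the aRG libraries.

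Around these genes, 30 others of G1 control were read from a list by role. In N against aRG 10 of 30 fell and 2 rose on the chimpanzee table, where 4.8% of all genes fell and 4.87% rose. The 4 genes of the CDK2 side and S phase entry (CDK2, CCNA2, CDC25A and CDC6) all fell. Of 10 E2F factors and partners E2F1, E2F2 and E2F7 fell, and RBL1 fell among the 3 pocket proteins, CKS1B among the 4 turnover factors and CDKN1A among the 4 other inhibitors. CDKN1A rests on 2 and 3 counts in N, at or under the floor of 3. None of the 3 subunits of the CDK-activating kinase passed.

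On the chimpanzee table CCNA2, the cyclin of S phase and G2, had the smallest adjusted p. It was at 87.7 and 95.7 CPM in aRG, 46.5 and 49.2 in bRG, 20.5 and 16.6 in bIP, and 16.2 and 14.6 in N. The 4 populations did not overlap, and the log2 fold change was −2.57 in N against aRG (SE 0.28, adjusted p = 0.000131). E2F2, an activating E2F, was next by adjusted p, at −4.99 (SE 0.65, adjusted p = 0.000367), with 17.8 and 23.0 CPM in aRG against 1.01 and 0.259 in N.

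The 2 that rose in N were an inhibitor and an upstream factor. CDKN2D (p19), of the same INK4 family as CDKN2C, was at 13.5 and 22.1 CPM in aRG, 22.2 and 39.1 in bRG, 32.7 and 26.3 in bIP, and 75.9 and 82.3 in N. Both N libraries were well above all others, and the log2 fold change against aRG was 2.15 (SE 0.36, adjusted p = 0.00222). MYCN, a transcription factor that promotes proliferation of neural progenitors, was at 61.4 and 72.8 CPM in aRG and 204 and 181 in N. It rose, with a log2 fold change in N against aRG of 1.52 (adjusted p = 0.00792, SE 0.31). Strand was not kept, so reads of MYCN and of an antisense transcript cannot be told apart.

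In bIP against aRG 4 of the 30 fell (E2F8, CCNA2, CDC25A and CKS1B) and 0 rose, where 1.5% of all genes fell and 1.34% rose. By log2 fold change E2F8, a repressive E2F, fell most, at −3.38 (SE 0.60, adjusted p = 0.00962). The smallest adjusted p was that of CCNA2, at −2.31 (SE 0.28, adjusted p = 0.00110), and the next that of CKS1B, a cofactor of SKP2 in the breakdown of CDKN1B protein, at −2.32 (SE 0.35, adjusted p = 0.00342). In bIP against bRG CCNA2 alone of the 30 fell (−1.37, SE 0.27, adjusted p = 0.0363), where 0.574% of all genes fell and 0.458% rose. None of the 30 passed without any 1 of the bRG or bIP libraries, 2 or 3 without an aRG library, and 5 without either N library. With the replicate number as a block 4 passed.

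In N against bIP E2F2 (−3.84, SE 0.62, adjusted p = 0.00656) and CDK2 (−2.10, SE 0.50, adjusted p = 0.0492) fell and MYCN rose (1.83, SE 0.32, adjusted p = 0.00986), where 1.48% of all genes fell and 1.06% rose. Of the 30, 1 passed without bIP replicate 2 and 5 without any 1 of the aRG or bRG libraries. With the block 6 passed. In N against bRG 7 fell, those with the smallest adjusted p being E2F2 (−4.33, SE 0.63, adjusted p = 0.00167) and E2F1 (−4.28, SE 0.66, adjusted p = 0.00228). MYCN (1.44, SE 0.31, adjusted p = 0.0168) and CDKN2D (1.37, SE 0.35, adjusted p = 0.0411) rose there, where 3.39% of all genes fell and 2.62% rose. In bRG against aRG 0 of 30 passed, with 1 higher (CDKN2D) and 2 lower (CCNA2 and CKS1B) at an unadjusted p under 0.05, and 0 by DESeq2.

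**Figure D5:**
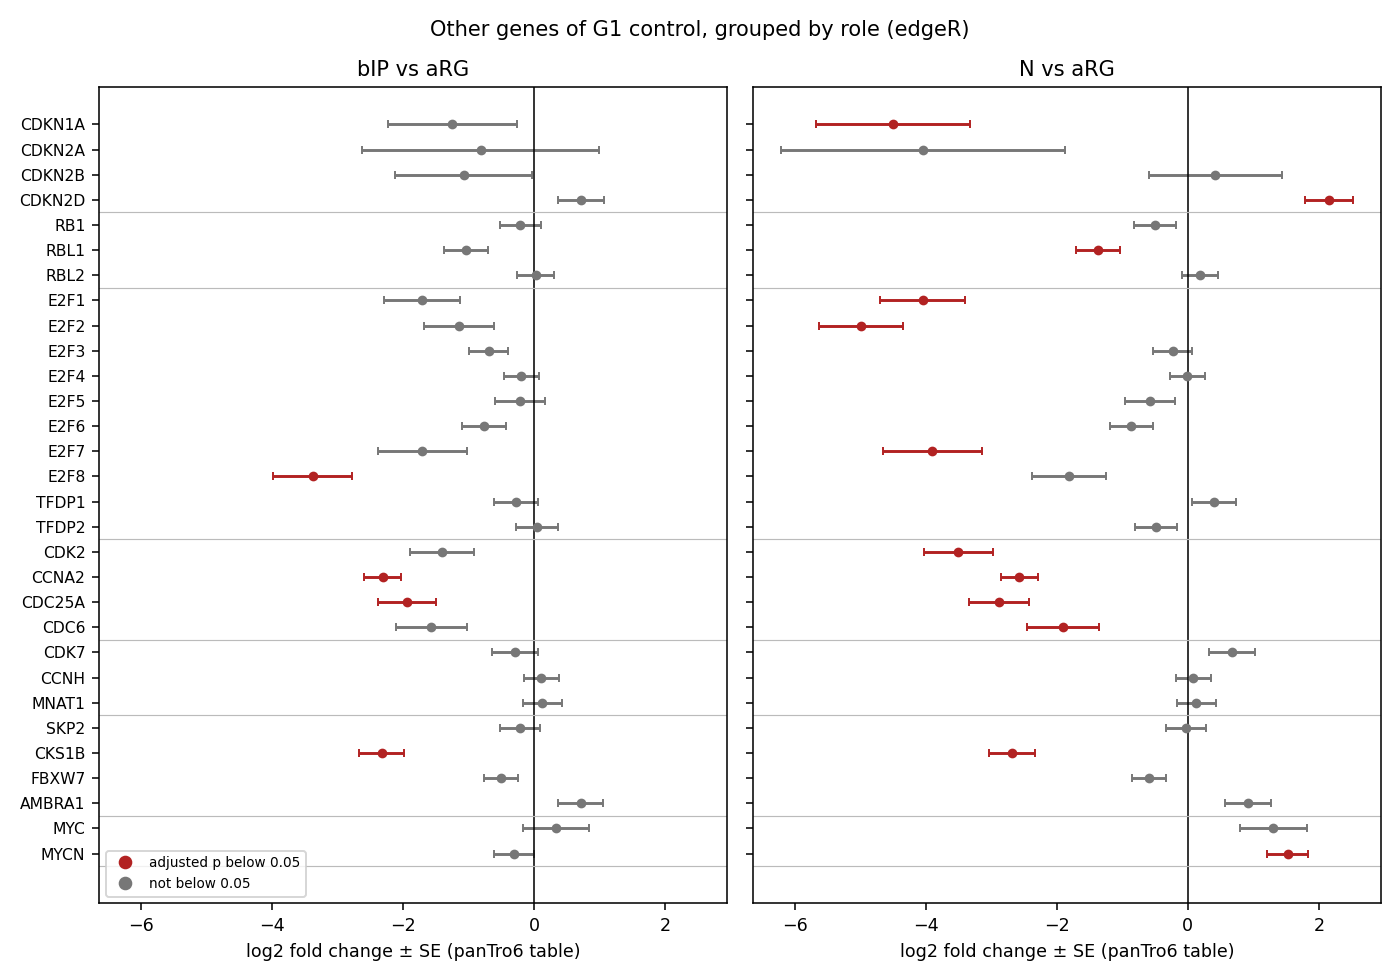
Points are edgeR log2 fold changes with their SE for 30 other genes of G1 control in bIP and N against aRG, grouped by role between grey lines and red where the adjusted p is below 0.05. In N, 10 genes are red to the left of 0, among them all 4 of the CDK2 group, and CDKN2D (2.15) and MYCN (1.52) are red to the right.

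Genes with the most similar profile over the 8 libraries were found by Pearson's r of log2(CPM + 1), as a description, since all share the libraries and 11000 genes (11122 on the human table) were searched. For CDKN2C they were FAM122C (r = 0.994) and TAF8 (0.987), and for CCND2 on the human table LNPEP (0.994) and ITGB3BP (0.993). CCND1 on the human table was most like DBF4 (0.993), the activator of the CDC7 kinase at replication origins, and WASF2 (0.993). CDK4 was most like EDC3 (0.986) and UBB (0.981), and CDK6 most like KIAA1143 (0.986) and ZSCAN31 (0.984). CDKN1B was closest to SNX2 (0.985) and PCAT7 (0.967), CDKN1C to WTAP (0.976) and MRPS18C (0.970), and CCND3 to DUSP3 (0.967) and KPNA6 (0.945). CCNE1 was nearest to ZNHIT1 (0.953) and GTF2A2 (0.949), and CCNE2 to MAN2C1 (0.955) and LRRC75B (0.934).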

How the data were processed

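The authors deposited raw read counts for each gene symbol, as whole numbers, on the chimpanzee genome (panTro6) and again on the human genome (hg38). STAR was used per the submitters' processing notes. Not given in the sources used here are its version, the gene models, and how and on which strand reads were counted. Libraries were made by a Smart-seq2 type workflow with 12 to 17 PCR cycles per the labels' protocols, with no step that marks strand. No molecular identifiers are named, so counts include PCR copies and floors cover counting error only. A row without a gene name (0.00545% to 0.00771% of counts) was left out.

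One model over all 8 libraries, with a coefficient per population, was fitted to genes kept by filterByExpr with edgeR 4.0.16 (glmQLFit, glmQLFTest, TMM) in R 4.3.3. P-values are two-sided, adjusted by Benjamini-Hochberg over all tested genes in each of the 6 pairwise comparisons, with a threshold of 0.05. SE were derived from the F statistic. DESeq2 1.42.0, other filters and scalings, halved counts, the human table, a block for replicate number and each library left out served as alternatives. The human table was taken for CCND1 and CCND2 after their chimpanzee counts had been seen. Members and lists were chosen with earlier results of these data known. Fold changes are given where the threshold was passed and for all members in bRG against aRG, and others were named after their values were seen. Of the list of 30, the rule named the 2 genes with the smallest adjusted p in each direction of a comparison. The other called genes of N against aRG and bIP against aRG were named after their values were seen. Likeness was searched among genes of at least 10 CPM in some population, and the 2 with the highest r are named. Between replicates, the chi-square of counts per gene was 46.7 to 73.5, far above counting noise, and each library was kept as its own sample.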

Additional observations from a re-analysis of the deposited data

How the results depend on the processing

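The fall of CDKN2C in N against aRG and bRG passed under every alternative run, leaving out each library included. Counts of members called moved as follows. DESeq2 gave 1 in bIP against aRG and 2 in N against bRG. Over all genes it called 2303 and 3803 there, against 1002 and 2128 in the fit reported. With no low-count filter the counts were 1 in bIP against aRG, 1 in bIP against bRG, and 2 each in N against bIP and N against aRG. Calls over all genes were then 2159, 1187, 2264 and 4526 in that order, against 1002, 365, 900 and 3421 in the fit reported. Fitting only the 2 populations compared gave 1 in bIP against bRG and 0 in N against bIP, with 319 and 543 calls over all genes. The human table gave 2 in N against bIP, 3 in N against aRG and 2 in N against bRG, where it can read CCND1 and CCND2, and 5 of 10 members highest in aRG in place of 3 of 9. Leaving out 1 library gave 0 to 1 in bIP against aRG and in bIP against bRG, and 1 to 3 in each comparison of N, with 3 (CDK6, CDKN1C and CDKN2C) without N replicate 1, where the lone N library is assumed to vary like the others.

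Of the 30 other genes, DESeq2 called 7 in bIP against aRG, 5 in bIP against bRG and 6 in N against bIP. EdgeR with no filter called 8, 6 and 6. Over all genes DESeq2 called 2303, 1178 and 2501, and edgeR with no filter 2159, 1187 and 2264. The fit reported called 1002, 365 and 900, so the background moved as well. In bIP against bRG a minimum of 5 CPM gave 3, robust estimation 2 and halved counts 3, with 461, 384 and 417 over all genes. In N against bIP the fit of only those populations gave 1 (543 over all genes), and 5 passed on the human table (938). Leaving out 1 library gave 0 to 5 in bIP against bRG and 1 to 5 in N against bIP.

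A replicate block called 1 member in bIP against aRG (CDKN2C, adjusted p = 0.0431), where 2122 passed over all genes. It called 4 of the 30 genes in bIP against bRG (1121 over all genes) and 6 in N against bIP (2165). Differences between replicates 1 and 2 correlated between populations with r of 0.123 to 0.266 over genes. The labels do not say what the number marks.

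Between bRG and aRG 4 members that were not called reversed when 1 library was left out. CCND3 ranged from −0.44 to 0.37 (without aRG replicate 2, and 0.010 without bRG replicate 2), CDK4 from −0.70 to 0.071 (without aRG replicate 2), CCNE2 from −0.090 (without aRG replicate 1) to 1.71, and CCND2 on the human table from −0.50 to 0.011 (without bRG replicate 2). Over all genes, bRG against aRG had 1 call in the fit reported, 118 by DESeq2, 215 with no filter and 39 with the replicate block. The cause of these changes was not tested. The common biological coefficient of variation was 0.629 on the chimpanzee and 0.357 on the human table, with 4 residual degrees of freedom, and each table had 1 call in bRG against aRG.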

Other observations

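Of the 30 other genes of G1 control, CDKN1A (p21), an inhibitor induced by p53, also had few chimpanzee counts, 277 against 1423 on the human genome (ratio 0.195). On the human table it was at 21.6 and 15.3 CPM in aRG, 21.3 and 11.8 in bRG, 15.9 and 14.0 in bIP, and 1.94 and 3.26 in N. Both N libraries were below all others, and the log2 fold change in N against bIP was −2.52 (SE 0.48, edgeR adjusted p = 0.0136), where the chimpanzee table made no call. CKS1B had the highest ratio of the 30, at 3.22, and MNAT1, a subunit of the CDK-activating kinase, was at 0.934. The 2 INK4 inhibitors with ample counts went opposite ways, CDKN2C from 22.6 CPM in aRG to 0.379 in N and CDKN2D from 17.8 to 79.1.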
